A study of Rattus norvegicus with 24 samples.

Results

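The cytosolic ribosomal proteins are the protein subunits of the ribosomes that translate the mRNA of nuclear genes. The genes were chosen by symbol, as every Rpl, Rplp, Rps or Rpsa gene in the table apart from Rpl3 and Rpl3l, and where a symbol had several rows the row with the highest mean was taken. This gave 76 genes among 13458 symbols, 45 of the large subunit and 31 of the small subunit. RNA had been sequenced from the tibialis anterior (TA), a dorsiflexor of the ankle, of both hind limbs of 12 aged (23 months) male Fischer 344 rats, which made 24 libraries. In 9 rats tetrodotoxin (TTX), a blocker of voltage-gated sodium channels, was delivered to the left common peroneal nerve, so that the left TA could not be activated while the right limb stayed active. The left TA was taken from 3 rats after 6 to 7 days of TTX (atrophy), from 3 rats after 9 further days without TTX (recovery) and from 3 rats after a second TTX period of 5 to 6 days that followed the first period and the 9 days without it (repeated atrophy). The right TA of these 9 rats formed the control group, so every control limb came from an animal whose other limb had been silenced. Left and right TA of 3 sham rats, which received saline and of which 1 belonged to each stage, were the sham left and sham right groups. The sham group therefore held 1 animal per stage.

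A ribosome joins a small subunit, which reads the mRNA, to a large subunit, which forms the peptide bond, and each ribosomal protein except those of the lateral stalk is present once per ribosome. In skeletal muscle the number of ribosomes sets an upper limit on protein synthesis and changes with loading and disuse. Most ribosomal protein mRNAs in vertebrates begin with a C followed by an unbroken run of pyrimidines, the terminal oligopyrimidine (TOP) tract, through which mTORC1 and the RNA-binding protein LARP1 control their translation and stability.

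The first transcribed bases are shown because this tract is the feature by which the genes are best known as a class. RefSeq starts (GRCr8) were found for 60 of the 76 genes. The tract was searched on the gene's strand as a C followed by at least 4 bases that were each C or T, beginning within 5 bases either side of the annotated start. It was found in 39 of the 60 ribosomal protein genes (65%), against 19% of all 27457 genes with a start sequence. A C at the annotated first base followed by at least 4 such bases, whether or not the run begins earlier, was found in 23 of them (38.3%), against 3.11% of all genes. The windows below hold 10 bases before the start and 20 bases from the start on, in the 5′ to 3′ direction of the gene, with the tract in capitals. Rpl10 (chrX:157205840-157205869, plus strand), Rplp1 (chr8:71290853-71290882, minus strand) and Rpl39 (chrX:121195877-121195906, minus strand) have a tract that begins at the first base.
Rpl10: gtgggagcgtCTCTTTTCCTCTggcgcggt
Rplp1: cgcatgtgatCCTTTCCTCagctgccgcca
Rpl39: taatcgcgttCTTCCggcctgtcctttctc
In Rps24 (chr16:96507-96536, plus strand), Rps27 (chr2:177964587-177964616, minus strand) and Rps28 (chr7:15311314-15311343, minus strand) the tract begins a few bases away from the annotated start, before it in Rps24 and Rps27, where it runs across the start, and after it in Rps28.
Rps24: ggtcctCTTTTCCTCCTTTacagctcgggc
Rps27: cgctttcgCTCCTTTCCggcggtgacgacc
Rps28: ccctgctcacgtgaCTCCTCTCCgctagat
Rpl41 (chr7:1563478-1563507, minus strand) and Rps27l (chr8:76443648-76443677, plus strand) have no tract in the window, which says only that these letters do not stand there.
Rpl41: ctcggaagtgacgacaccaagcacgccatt
Rps27l: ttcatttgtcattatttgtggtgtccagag

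Ribosomal protein genes have left many intronless copies in mammalian genomes, and the table assigned some of the reads to such copies. In 12 of the 76 genes the row used spans no intron, since its end minus its start exceeds the transcript length by less than 30 bases. These are Rpl7a, Rpl8, Rpl9, Rpl10a, Rpl13, Rpl22, Rpl37, Rpl38, Rpl39, Rps13, Rps14 and Rps20. Of the 60 genes with a RefSeq start, 10 have their row in the table (rn7) on another chromosome than that start, and all 10 of those rows are intronless. For Rpl7a, the intronless row on chromosome 1 averaged 907.6 CPM (counts per 1000000 reads) over the 24 libraries, while the row with introns on chromosome 3 averaged 0.0216 CPM. Rpl22 showed the same contrast, with 273 CPM in the intronless row on chromosome 4 and 0.00468 CPM in the row with introns on chromosome 5. For Rpl39 the table holds 2 rows, both intronless, on chromosomes 14 and 18, with identical values, whereas the RefSeq start lies on chromosome X. The values of these 12 genes may therefore hold reads of more than 1 locus, and how reads with several matches were counted is not given in the sources used here.

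Library depth, inferred from the step that low values share, was 18.9 to 30.9 in units of 1000000 reads. The summed CPM of 6 myofibre markers (Acta1, Ckm, Mb, Actn3, Myh1 and Myh4) was 16 to 21.8% of a control library, 7.16 to 17.1% of an atrophy library, 16.5 to 18.2% of a recovery library and 10.1 to 13.3% of a repeated atrophy library. It was 12.6 to 18.1% of a sham left and 13.8 to 19.7% of a sham right library, so the label of skeletal muscle was borne out in every library. The 10 most abundant genes of a library took 24.3 to 32.7% of the CPM in control limbs, 13.0 to 25.6% in atrophy and 15.6 to 19.2% in repeated atrophy. The median log2 fold change of all rows was 0.22 in atrophy, 0.02 in recovery and 0.20 in repeated atrophy. Values rescaled with trimmed-mean factors, which brings these medians to 0.00, 0.01 and -0.01, are therefore given beside the CPM. The summed CPM of 4 fibroblast markers (Pdgfra, Col1a1, Dcn and Lum) was 150 to 368 in control limbs, 193 to 344 in atrophy limbs, 589 to 979 in recovery limbs and 266 to 384 in repeated atrophy limbs, and that of 5 macrophage markers (Cd68, Adgre1, Csf1r, Cd163 and Ptprc) was 19.7 to 78.3, 39.9 to 77.9, 57.8 to 117 and 20.7 to 67.6 CPM. Markers of lymphocytes reached at most 1.56 CPM. Their part in the results was not tested, and in bulk tissue fewer cells of a type and less RNA per cell cannot be told apart.

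The ribosomal protein mRNAs took a larger share of the library in both silenced groups than in the pooled control limbs. After recovery the share lay within the range of the pooled control limbs and above that of each rat's own right limb. Together the 76 genes made up 1.60 ± 0.342% of the CPM in control limbs (SD, n = 9), with a lowest value of 1.22%, a median of 1.52% and a highest of 2.12%. The 3 atrophy limbs held 3.15%, 2.26% and 2.91% (mean 2.77 ± 0.457%), and the 3 repeated atrophy limbs held 3.02%, 3.05% and 2.60% (mean 2.89 ± 0.253%). The 6 silenced limbs all lay above the 9 control limbs on CPM. The recovery limbs held 1.64%, 1.41% and 1.87% (mean 1.64 ± 0.234%), all within the range of the control limbs, while the right limbs of the same rats held 1.22%, 1.32% and 1.26%. On the rescaled values the shares were 1.76 ± 0.266% in control, 2.36 ± 0.0901% in atrophy, 1.78 ± 0.113% in recovery and 2.48 ± 0.433% in repeated atrophy. On that scale the atrophy limbs, at 2.29 to 2.46%, still lay above the highest control limb, at 2.09%, whereas repeated atrophy limb 3, at 2.06%, lay within the control range.

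The control limbs were not alike between stages. The right limbs of the atrophy rats held 1.69 to 2.12% ribosomal protein mRNA, those of the repeated atrophy rats 1.43 to 1.75% and those of the recovery rats 1.22 to 1.32%. The 3 lowest of the 9 control limbs were thus those of the recovery rats. The sham rats differed even more among themselves. Sham rat 1 held 2.13% on the left and 1.67% on the right, sham rat 2 held 1.32% and 1.36%, and sham rat 3 held 3.50% and 2.77%. Sham rats 1, 2 and 3 were those of the atrophy, recovery and repeated atrophy stage, in that order. Sham rat 3, which had no TTX, had the highest share of all 24 libraries in its left limb. That limb lay above the 3 repeated atrophy limbs, at 3.02, 3.05 and 2.60%, and the right limb of sham rat 3 lay above the lowest of them. With 1 sham rat per stage, stage and animal could not be told apart.

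**Figure D1:**
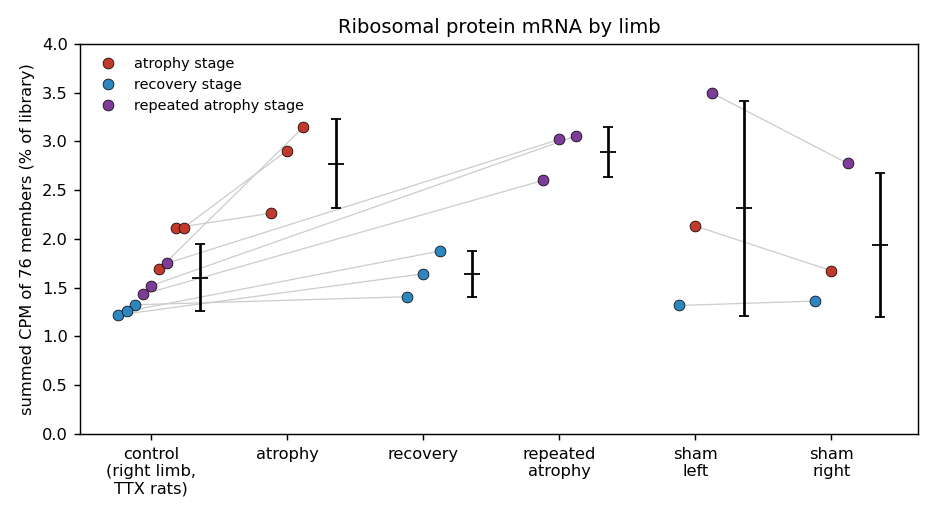
Summed CPM of the 76 ribosomal protein genes as a percentage of the library (y axis) in each limb of the 6 groups (x axis). Points are single limbs coloured by the stage of the animal, grey lines join the left and right limb of a rat, and black bars give the mean and SD of the group. The atrophy and repeated atrophy limbs, between 2.26 and 3.15%, all lie above the control limbs, which end at 2.12%, whereas the sham left limbs reach from 1.32 to 3.50%.

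Per kilobase of transcript, the control levels of the 76 genes ranged widely, with a 10th percentile of 68.7, a median of 287 and a 90th percentile of 552 CPM per kb. The genes with the highest level per kb were Rps14, Rpl7a, Rpl37, Rplp0 and Rplp1, of which the first 3 have intronless rows. At the low end were Rpl39l, a paralog of Rpl39 known for its expression in testis, with 0.638 CPM per kb, and Rpl37a with 4.07, although the protein of Rpl37a is part of every ribosome. Rps21 (9.93), Rpl36 (45.7) and Rps27l (50.7 CPM per kb) followed. Rpl39l was the one gene of the 76 at 0 CPM in some library.

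To ask how the first silencing changed each gene, the 3 atrophy limbs were compared with the 9 control limbs. A gene was called differentially expressed (DEG) where limma on log2(CPM + 1) gave at least a 1.2-fold difference with an adjusted p (Benjamini-Hochberg, over all rows) no higher than 0.05. After atrophy 71 of the 76 ribosomal protein genes were DEGs with higher expression, 41 of 45 in the large and 30 of 31 in the small subunit, against 20.3% of all 14031 rows. None were lower. The median log2 fold change was 0.83 (1.77-fold), against 0.22 for all rows. After rescaling 19 genes were higher, 8 of the large and 11 of the small subunit, against 4.72% of all rows, and the median was 0.46. The 5 genes that did not pass were Rpl7a, Rpl8, Rpl37a, Rpl39l and Rps2.

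The largest rise was that of Rpl39, which lines the exit tunnel of the nascent chain. Rpl39 had 19.6 CPM in the lowest control limb, 35.0 in the median and 134 in the highest, and 268, 104 and 110 CPM in the atrophy limbs, a log2 fold change of 1.63 ± 0.46 (SE, limma adjusted p = 0.0185). Atrophy animal 1 was the high limb, and the other atrophy limbs overlapped the upper control limbs. Rps25, a protein of the small subunit head needed by several viral internal ribosome entry sites, had 59.8, 100 and 254 CPM in control limbs (lowest, median, highest) and 455, 224 and 269 CPM after atrophy, a rise of 1.40 ± 0.33 on the log2 scale (limma adjusted p = 0.00963). Rps24, mutated in some families with Diamond-Blackfan anaemia, rose from 44.1, 76.5 and 164 CPM to 341, 140 and 177 CPM (log2 fold change 1.30 ± 0.33, limma adjusted p = 0.0131). In both genes 1 atrophy limb, that of animal 2, lay within the control range. Rps28 rose by 1.35 ± 0.37 on the log2 scale (limma adjusted p = 0.0173), from a control median of 17.2 CPM to 85.4, 41.3 and 42.7 CPM, with 2 atrophy limbs below the highest control limb of 48.7 CPM.

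Rps27a, which is made as a fusion of ubiquitin with the ribosomal protein, was higher by the widest margin over its error. The control limbs of Rps27a held 41.7 to 80.7 CPM with a median of 55.9, and the atrophy limbs held 163, 92.6 and 146 CPM. All 3 atrophy limbs lay above all 9 control limbs, and the log2 fold change was 1.22 ± 0.19 (limma adjusted p = 0.00506), or 0.85 on the rescaled values (limma adjusted p = 0.00932). The sham left limbs, without TTX, held 96.6, 65.6 and 117 CPM of Rps27a. Those of sham rats 1 and 3 thus also lay above all 9 control limbs, and above the atrophy limb at 92.6 CPM. Across the 76 genes, 33 had all atrophy limbs above all control limbs, against 4.82% of all rows, and 18 did so on the rescaled values, against 2.34%.

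These calls rested on the pooled control limbs and on atrophy animal 1. Without that animal 0 of the 76 genes passed, against 0.00715% of all rows that were higher, although 73 had an unadjusted limma p under 0.05 (20.5% of all rows) and the median log2 fold change was 0.73. With the animal as a block in limma, so that each silenced limb is compared with its own contralateral limb, the median was 0.50, 75 of 76 genes were above 0 (71.7% of all rows) and 52 had an unadjusted p under 0.05 (19.1% of all rows), but 0 passed, and 0% of all rows were higher.

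After the 9 days of recovery few ribosomal protein genes passed against the pooled control limbs. In recovery against control, 2 of the 76 genes were higher, Rpl41 and Rps24, and none were lower, against 4.40% of all rows that were higher. The median log2 fold change was 0.11 (all rows 0.02), and 50 genes were above 0 (53.1% of all rows). On the rescaled values 3 genes were higher, Rpl39, Rpl41 and Rps24, against 6.09% of all rows, and Rpl7a was lower, against 6.02% of all rows. The share of genes that passed was thus close to or below that of all rows.

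Rpl41 encodes the shortest protein of the ribosome, which lies at the interface of the subunits. Its row lies in rn7 at chr7:977886-978966. Its control limbs held 126, 209 and 402 CPM (lowest, median, highest), the recovery limbs held 510, 403 and 552 CPM, and the log2 fold change was 1.03 ± 0.27 (limma adjusted p = 0.029). The lowest recovery limb of Rpl41 lay just above the highest control limb, and Rpl41 was the 1 gene of the 76 whose recovery limbs all lay above control, against 5.66% of all rows. Rpl41 had 787, 412 and 589 CPM in atrophy and 588, 733 and 489 CPM in repeated atrophy, with log2 fold changes of 1.28 and 1.33 against control. Rps24 had 187, 160 and 211 CPM in recovery, a rise of 1.16 ± 0.33 on the log2 scale (limma adjusted p = 0.0415), with 1 limb below the highest control limb. For Rpl39 the recovery limbs held 131, 106 and 143 CPM, a log2 fold change of 1.42 ± 0.46 that passed on the rescaled values (1.40, limma adjusted p = 0.0437) but not on CPM (limma adjusted p = 0.0618).

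At the other end stood Rpl10, whose protein joins the large subunit last and helps to form the site where tRNA is bound. The control limbs of Rpl10 held 269, 371 and 609 CPM (lowest, median, highest), and the recovery limbs held 256, 184 and 335 CPM, with a log2 fold change of -0.61 ± 0.25 that did not pass (limma adjusted p = 0.131). The right limbs of the same recovery rats held 287, 272 and 269 CPM of Rpl10, so the low recovery values stood beside low control values. For Rpl7a, a large subunit protein with an intronless row here, the recovery limbs held 489, 407 and 586 CPM against 489, 758 and 1114 CPM in control limbs (lowest, median, highest). The right limbs of the same rats held 556, 593 and 489 CPM of Rpl7a, the 3 lowest of the 9 control values. The log2 fold change of Rpl7a was -0.60 on CPM (limma adjusted p = 0.0855) and -0.62 on the rescaled values (limma adjusted p = 0.0343). Rps15 (-0.45), Rpl8 (-0.37) and Rps2 (-0.33) were also below 0 and did not pass on either scale. On rescaled values the recovery limbs of Rpl7a, Rpl8 and Rps15 all lay below the 9 control limbs, against 7.35% of all rows, and those of Rpl41 and Rps24 all lay above them, against 5.75%.

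Leaving out any 1 of the 3 recovery animals took both recovery calls on CPM away, as did leaving out repeated atrophy animal 2, and the share of all rows that were higher fell to 0.887 to 2.63% in those fits, while 4 to 11 genes had an unadjusted limma p under 0.05, against 16.6 to 21.8% of all rows. There were 4 recovery calls without atrophy animal 2 (6.7% of all rows), and 1 each without atrophy animal 3 (3.5%) and repeated atrophy animal 3 (3.76%). With the animal as a block the picture after recovery differed. The median of the 76 genes was 0.36 (all rows 0.08), 69 were above 0 (61.1% of all rows) and 36 had an unadjusted limma p under 0.05 (18% of all rows), although 0 passed, against 0.0428% of all rows that were higher. In that fit Rpl39 was at 1.88, Rps24 at 1.41 and Rpl41 at 1.26 on the log2 scale (limma adjusted p = 0.131, 0.137 and 0.102).

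After the second silencing nearly all ribosomal protein genes were higher. In repeated atrophy against control, 72 of the 76 genes were higher, 42 of the large and 30 of the small subunit, and none were lower, against 28.1% of all rows that were higher. The median log2 fold change was 0.94 (1.92-fold), against 0.20 for all rows. On the rescaled values 43 genes were higher, 22 of the large and 21 of the small subunit, against 13.1% of all rows, with a median of 0.56. In 54 of the 76 genes all repeated atrophy limbs lay above all control limbs, against 16.8% of all rows, and in 14 on the rescaled values, against 8.54%. Unlike atrophy, this result held in the fit with the animal block, where 71 genes were higher, against 21.5% of all rows, with a median of 0.97. On rescaled values with the block, 50 genes were higher, against 11% of all rows. Leaving out 1 rat at a time, with both its limbs, gave 56 to 73 genes, against 14.5 to 30.9% of all rows. The genes that did not pass on CPM were Rpl37a, Rpl39l, Rplp1 and Rps2.

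Rps27a again had the smallest adjusted p of the 76 genes. Its repeated atrophy limbs held 159, 151 and 147 CPM, 152.1 ± 6.06 CPM on average (SD, n = 3) against 56.4 ± 12.0 CPM in control limbs (n = 9), and the log2 fold change was 1.44 ± 0.19 (limma adjusted p = 8.12e-05). On the row used, all 3 limbs of Rps27a lay close together and well above the control limbs. Another row of Rps27a overlaps it on chromosome 14. That row averaged 60.25 CPM over the 24 libraries, with a range of 1.645 to 173.5 CPM, against a mean of 84.91 CPM in the row used. Rps27l, the p53-inducible paralog of Rps27, had 23.8, 31.1 and 65.2 CPM in control limbs (lowest, median, highest), 118, 59.1 and 56.1 CPM in atrophy, 46.9, 45.2 and 60.5 CPM in recovery and 85.2, 104 and 81.0 CPM in repeated atrophy. The repeated atrophy limbs of Rps27l all lay above control, with a log2 fold change of 1.38 ± 0.25 (limma adjusted p = 0.00063), whereas after atrophy 2 of 3 limbs lay within the control range, with a log2 fold change of 1.09 ± 0.25 (limma adjusted p = 0.00947). Rps27 itself rose by 1.24 and 1.19 on the log2 scale in atrophy and repeated atrophy. Mdm2, the ubiquitin ligase of p53 that free ribosomal proteins bind, had log2 fold changes of 0.37 in atrophy, which did not pass (limma adjusted p = 0.0828), and 0.55 in repeated atrophy, which did (limma adjusted p = 0.00959). Rpl39 and Rps24 rose by 1.53 and 1.36 on the log2 scale in repeated atrophy (limma adjusted p = 0.0143 and 0.00458), with 119, 231 and 91.5 CPM for Rpl39 and 187, 318 and 161 CPM for Rps24.

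**Figure D2:**
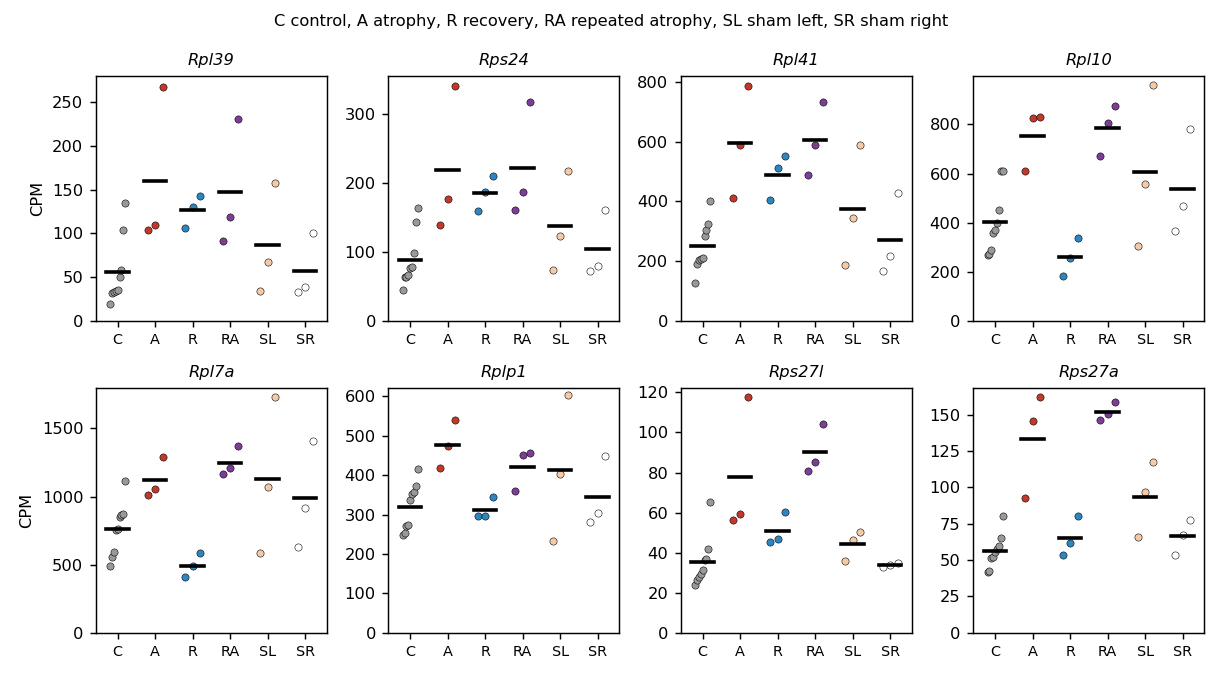
CPM (y axis, from 0) of 8 ribosomal protein genes in single limbs of control (C, n = 9), atrophy (A), recovery (R), repeated atrophy (RA), sham left (SL) and sham right (SR), with n = 3 in each of the last 5 groups. Bars are group means. Of the recovery limbs, those of Rpl41 lie at 403 to 552 CPM, above all control limbs, and those of Rpl10 at 184 to 335 CPM, overlapping the control limbs. The 3 repeated atrophy limbs of Rps27a lie within 147 to 159 CPM.

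The silenced and the recovered limbs were also compared directly. In recovery against atrophy 42 of the 76 genes were lower, 28 of the large and 14 of the small subunit, against 14.5% of all rows, and the median log2 fold change was -0.70 (all rows -0.19). After rescaling 10 genes were lower, against 5.16% of all rows. Rpl10 had the largest fall, from 824, 612 and 829 CPM in atrophy to 256, 184 and 335 CPM in recovery (log2 fold change -1.57 ± 0.31, limma adjusted p = 0.00677). The groups did not overlap. The right limbs of the same rats did not overlap either, with 371, 609 and 609 CPM of Rpl10 in the atrophy rats against 287, 272 and 269 CPM in the recovery rats. Rpl7a was also lower (-1.19). Rpl39, Rps24 and Rpl41, at -0.20, -0.14 and -0.25, did not pass, and neither did Rpl37a at 0.28, the one gene above 0. Without recovery animal 2 only 1 gene was lower, against 1.82% of all rows. There were 7 without recovery animal 1 (2.44% of all rows), 10 without atrophy animal 1 (5.55%) and 18 without atrophy animal 3 (7.02%), so that the calls fell over all rows as well. With the animal as a block the median was -0.09 and 0 of the 76 genes passed (3 at an unadjusted limma p under 0.05, against 7.96% of all rows), against 0.0143% of all rows that were lower. The control limbs of the 2 stages, at 1.22 to 1.32% and 1.69 to 2.12% ribosomal protein mRNA, differed in the same direction as the treated limbs.

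In repeated atrophy against recovery 52 of the 76 genes were higher, 33 of the large and 19 of the small subunit, against 21% of all rows, with a median log2 fold change of 0.82. After rescaling 22 were higher, against 10.5% of all rows. Rpl10 again changed most, from 256, 184 and 335 CPM in recovery to 876, 805 and 672 CPM (log2 fold change 1.63 ± 0.31, limma adjusted p = 0.00194), and Rpl7a (1.35) and Rps27a (1.23) were also higher. With the animal as a block the median was 0.54, and 0 of 76 genes passed (30 at an unadjusted limma p under 0.05, against 19.7% of all rows), against 0.0214% of all rows that were higher. In that fit Rpl10 was at 1.09 (limma adjusted p = 0.138). Without recovery animal 2 there were 19 genes (8.99% of all rows), and without repeated atrophy animal 2 there were 28 (12.8%).

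Between repeated atrophy and atrophy 0 of the 76 genes passed, against 0.0356% of all rows that passed either way. An unadjusted limma p under 0.05 was found in 0 of the 76 genes, against 6.3% of all rows. The median log2 difference was 0.08, and the 76 genes lay between -0.26 and 0.29. The direction of the median rested on single rats, since it was -0.05 without atrophy animal 2 and 0.20 without atrophy animal 1. With the animal as a block the median was 0.45, with 75 genes above 0 (58.9% of all rows), but 0 passed and 7 had an unadjusted limma p under 0.05 (5.63% of all rows). The difference between the responses to the first and the second silencing was therefore not detectable gene by gene with 3 rats per group.

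Because each rat gave both limbs, left minus right differences could be formed within animals. On the rescaled values the median difference of the 76 genes (log2, left minus right) was 0.40, 0.12 and 0.20 in the 3 atrophy rats, with 64, 59 and 69 genes higher on the left. In the 3 recovery rats it was 0.41, 0.11 and 0.25, with 68, 48 and 63 genes higher on the left. In the 3 repeated atrophy rats it was 0.55, 0.57 and 0.61, with 73, 68 and 69 genes higher on the left. Of all rows, 45.4 to 50.2% were higher on the left in these 9 rats. The repeated atrophy rats had the 3 largest medians of the 9 TTX rats on this scale, and the atrophy and recovery rats overlapped. On CPM the medians were 0.94, 0.09 and 0.46 in atrophy, 0.45, 0.12 and 0.59 in recovery and 0.78, 1.07 and 1.00 in repeated atrophy, so that atrophy rat 1 lay above repeated atrophy rat 1. Higher on the left in all 3 rats on the rescaled values were 46 genes in atrophy, 46 in recovery, 61 in repeated atrophy and 6 in the sham rats, against 15.9, 22.7, 25.3 and 11.3% of all rows.

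The sham rats, which had no TTX, also differed between limbs. On the rescaled values the median difference was 0.44 in sham rat 1 and 0.40 in sham rat 3, each with 75 of 76 genes higher on the left, and -0.17 in sham rat 2, with 6 higher on the left. Of all rows, 46.8 to 50.1% were higher on the left in the sham rats. On that scale the medians of the atrophy and recovery rats, 0.11 to 0.41, did not exceed the highest sham median. On CPM the sham medians were 0.39, -0.01 and 0.34, and those of atrophy rats 1 and 3 and recovery rats 1 and 3 lay above all of them. The medians of the 3 repeated atrophy rats were larger than all 3 sham medians on both scales. In the test of sham left against sham right with the animal as a block, the median was 0.25 (all rows 0.02), 75 genes were above 0 (54.4% of all rows) and 32 had an unadjusted limma p under 0.05 (4.27% of all rows), but 0 passed, and 0% of all rows passed either way. Against the 9 control limbs, the sham left limbs had a median log2 fold change of 0.49, with 75 genes above 0 (74% of all rows), yet 0 passed (11 at an unadjusted limma p under 0.05, against 13.8% of all rows), and 0% of all rows passed. In 0 of the 76 genes did all sham left limbs lie above control, against 1.77% of all rows. The value rested on single rats. Without sham rat 2 the median was 0.83 with 67 genes at an unadjusted limma p under 0.05, against 24.8% of all rows. Without sham rat 3 it was 0.14 with 1 such gene, against 10.6% of all rows. In these fits 0 genes passed, against 0.798% and 0.0582% of all rows that were higher.

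**Figure D3:**
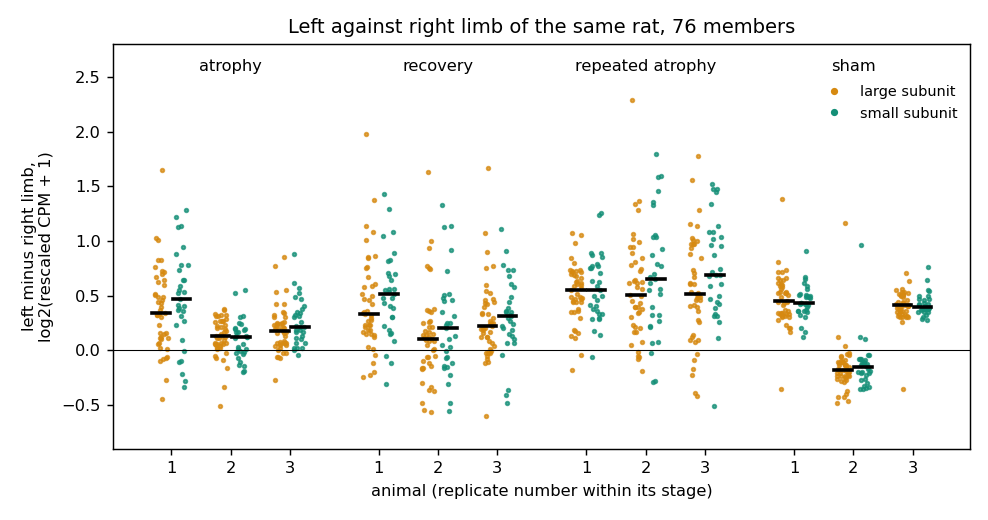
Difference between the left and the right limb of each rat (y axis, log2 of rescaled CPM + 1) for the 76 ribosomal protein genes, by animal within its stage (x axis). Points are genes, orange for the large and green for the small subunit, and black bars are their medians. The medians over all 76 genes are 0.55 to 0.61 in the repeated atrophy rats, 0.11 to 0.41 in the atrophy and recovery rats, and 0.44, -0.17 and 0.40 in the sham rats.

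The balance of the subunits was followed as the summed level of their genes. The summed CPM of the large subunit genes was 1.76 ± 0.0654 times that of the small subunit genes in control limbs (SD, n = 9, 1.66 to 1.88), 1.74 ± 0.0597 times in atrophy, 1.76 ± 0.038 times in repeated atrophy and 1.76 times in both sham groups. In recovery it was 1.62 ± 0.0219 times, and the 3 recovery limbs, at 1.60 to 1.64, lay below all 9 control limbs. The right limbs of the recovery rats held the ratio at 1.66 to 1.75. The median log2 fold change of the large subunit genes minus that of the small subunit genes was -0.09 in atrophy, -0.15 in recovery and -0.05 in repeated atrophy. In recovery the 10th and 90th percentiles of the log2 fold change were -0.28 and 0.54 in the large subunit and -0.15 and 0.62 in the small subunit. Within rats, the large minus small difference of the medians (log2 CPM, left minus right) was -0.14, 0.01 and -0.05 in atrophy, -0.18, -0.09 and -0.08 in recovery, 0.00, -0.14 and -0.17 in repeated atrophy, and between -0.02 and 0.02 in the sham rats. The mean log2 level of the large minus that of the small subunit genes was 0.10 ± 0.04 in control limbs, 0.02 ± 0.07 in atrophy, 0.00 ± 0.04 in recovery and 0.02 ± 0.05 in repeated atrophy (SD), so on this measure recovery did not stand apart from the silenced groups. No test of the subunit balance was run.

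**Figure D4:**
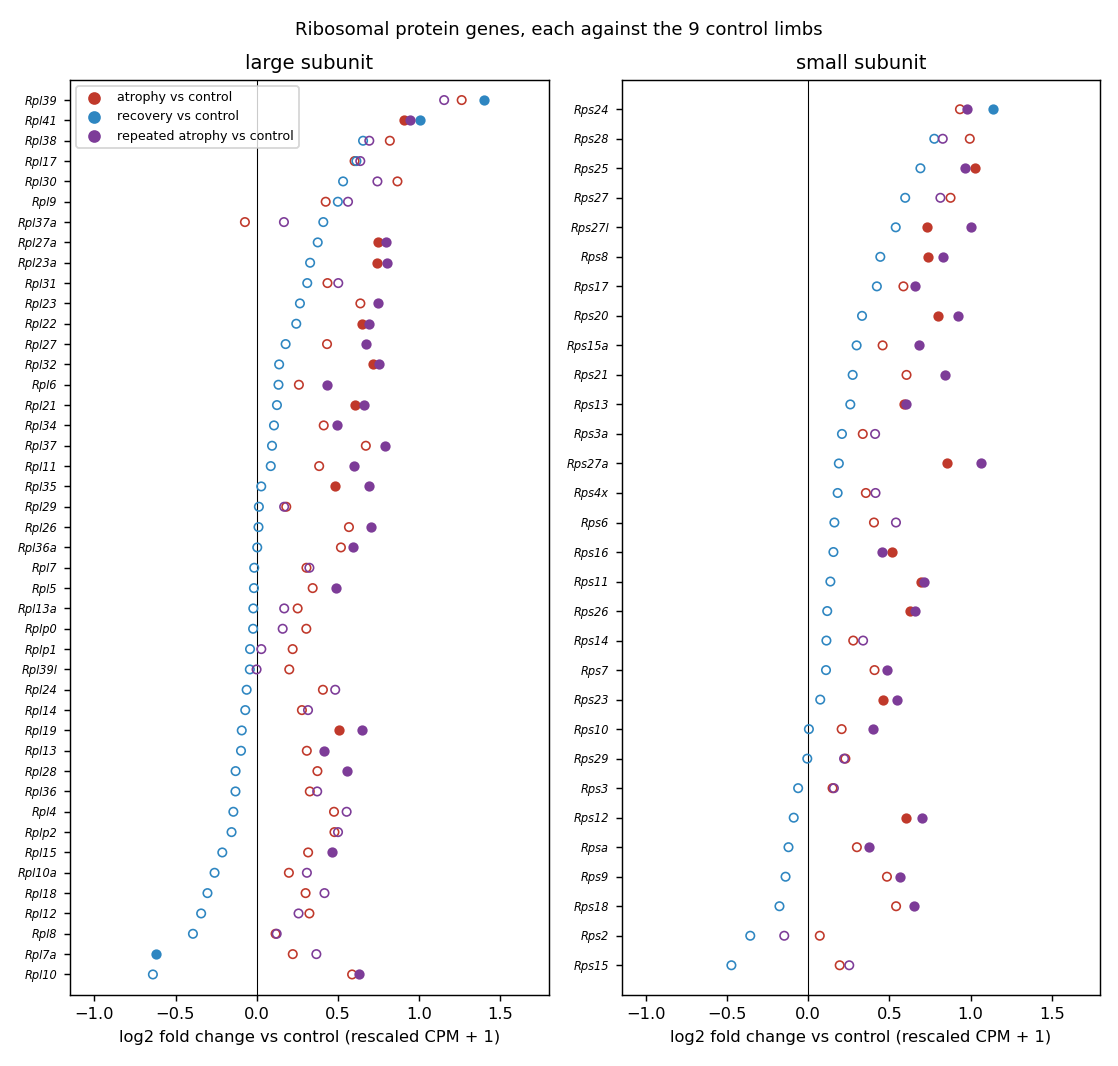
Log2 fold change against the 9 control limbs on rescaled values (x axis) for the large subunit genes (left) and the small subunit genes (right) that are named in it, ordered by their value in recovery. Red is atrophy, blue recovery and purple repeated atrophy, and filled points passed the test. Most red and purple points lie to the right of 0 in both panels, and the blue points run from -0.64 (Rpl10) to 1.40 (Rpl39).

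By place in the ribosome, the 4 genes of the lateral stalk and its base (Rplp0, Rplp1, Rplp2 and Rpl12), which recruit the elongation factors, had lower medians than the 76 genes in atrophy and repeated atrophy. All 4 passed in atrophy, with a median of 0.68, and 3 in repeated atrophy, with a median of 0.59, against medians of 0.83 and 0.94 for the 76 genes. Rplp1 had 249, 338 and 414 CPM in control limbs (lowest, median, highest), 541, 417 and 473 CPM in atrophy and 451, 456 and 359 CPM in repeated atrophy. The log2 fold change of Rplp1 was 0.59 in atrophy (limma adjusted p = 0.0175) and 0.41 in repeated atrophy, where 1 limb lay within the control range and the gene did not pass (limma adjusted p = 0.0576). Rpl5 and Rpl11, which form a particle with the 5S rRNA and can bind Mdm2, rose by 0.71 and 0.75 in atrophy and by 0.87 and 0.98 in repeated atrophy. All 8 genes of the tunnel exit passed in both, with medians of 0.95 and 1.08, as did all 13 genes of the small subunit head that were measured, with medians of 0.91 and 1.03. Since 71 and 72 of the 76 genes passed in all, against 20.3% and 28.1% of all rows, these counts do not set the lists apart. After rescaling 4 and 5 of the 8 tunnel exit genes and 5 and 9 of the 13 head genes were higher, and 0 of the 4 stalk genes in either group, beside 19 and 43 of the 76 genes and 4.72% and 13.1% of all rows. The lists overlap with the 76 genes by construction, and no list was compared with another by a test.

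Several other proteins have known roles beyond their structural place. Rps6, the target of the S6 kinases downstream of mTORC1, had log2 fold changes of 0.77 in atrophy, 0.19 in recovery and 0.92 in repeated atrophy, passing in the first and the last. Rpl38, known from its role in the patterning of the axial skeleton, followed with 1.19, 0.68 and 1.07. Rpl22 (1.02, 0.27 and 1.08), Rpl4 (0.84, -0.12 and 0.94), Rps4x (0.72, 0.21 and 0.80), Rpsa (0.67, -0.10 and 0.76) and Rps3 (0.52, -0.04 and 0.54) passed in both silenced groups and not in recovery. Rps2, a protein at the mRNA entry of the small subunit, had 466, 427 and 633 CPM in atrophy and 485, 387 and 439 CPM in repeated atrophy, against 253, 384 and 516 CPM in control limbs (lowest, median, highest). The Rps2 ranges overlapped, and the log2 fold changes of 0.44 and 0.23 did not pass (limma adjusted p = 0.0905 and 0.361). Rpl37a (0.13 and 0.38) and Rpl39l (0.33 and 0.07) were too low for their values to bear a comparison, at no more than 4.45 and 1.27 CPM in any limb.

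Short transcripts tended to have the larger fold changes. Across the 76 genes the Spearman correlation of the rescaled log2 fold change with transcript length was -0.38 in atrophy, -0.45 in recovery and -0.36 in repeated atrophy, against -0.12, -0.14 and -0.07 across the 6705 rows with a mean of at least 10 CPM. The points share libraries and control limbs, and the values are descriptions. The 26 genes with a transcript under 500 bases had medians of 0.60, 0.27 and 0.69 in the 3 groups, and the 50 longer genes 0.41, -0.02 and 0.51. Among other rows of at least 10 CPM, the 66 under 500 bases had medians of 0.10, 0.32 and 0.08. In recovery the short ribosomal protein genes were thus near other short transcripts, while in atrophy and repeated atrophy genes of either length lay above them. The limit of 500 bases was chosen after the values were seen, and the part of transcript length in the results was not tested. The 12 genes with an intronless row had medians of 0.51, 0.18 and 0.58, beside 0.46, 0.05 and 0.56 in the other 64. By the tract within 5 bases either side of the annotated start, the 39 genes with it had medians of 0.48, 0.11 and 0.56 and the 21 without it 0.40, -0.02 and 0.49.

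**Figure D5:**
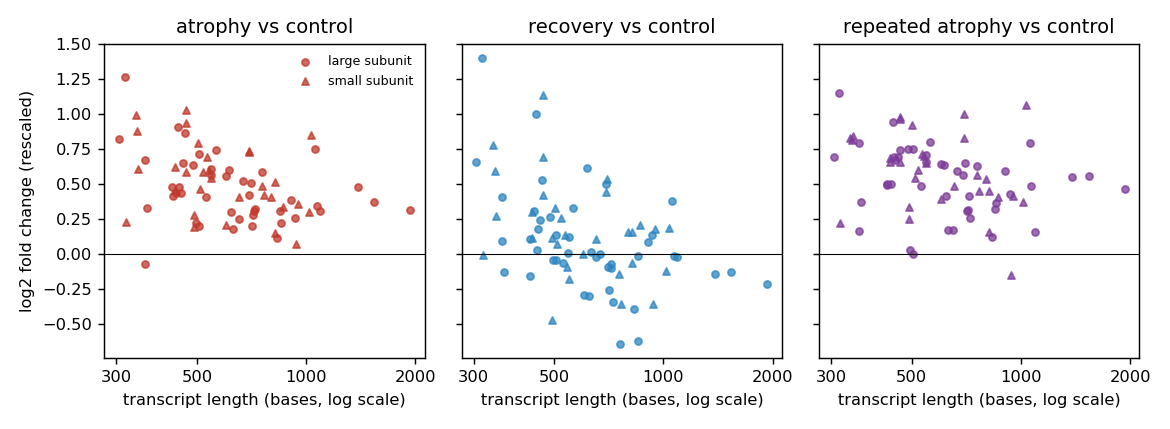
Log2 fold change against control on rescaled values (y axis) plotted against transcript length in bases (x axis, log scale) for the 76 ribosomal protein genes in atrophy, recovery and repeated atrophy. Circles are large and triangles small subunit genes. Fold change tends to fall with length in each panel, with Spearman correlations of -0.38, -0.45 and -0.36 and wide scatter, as shown by the short Rps29 at 0.23, -0.01 and 0.22.

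Genes that work beside the ribosomal proteins were read against the share of all rows that were higher, 20.3% in atrophy and 28.1% in repeated atrophy on CPM and 4.72% and 13.1% on the rescaled values. Among ribosomal protein genes that the symbol rule does not catch, Fau and Rpl36al were higher in atrophy and in repeated atrophy, and Rack1 and Rpl22l1 were not called. After rescaling Rpl36al passed in both and Fau in neither. Of 6 elongation factor genes, 3 were higher in atrophy and 4 in repeated atrophy, and 2 in each on the rescaled values. Eef1a1, the ubiquitous form of the factor that delivers tRNA, rose by 1.87 and 2.78 on the log2 scale (limma adjusted p = 0.00668 and 9.40e-05), while Eef1a2, the form of adult muscle, was at -0.16 and -0.12 and did not pass. Eef2, the translocation factor, was at 0.39 in atrophy, -0.92 in recovery (limma adjusted p = 0.0672) and 0.35 in repeated atrophy. Of 10 other mRNAs known to carry a TOP tract, 5 were higher in atrophy and 7 in repeated atrophy, among them Pabpc1, the poly(A)-binding protein (1.15 and 1.29), and 2 and 5 were higher on the rescaled values. Of 9 genes of mTORC1 and its regulators, Mtor, Rheb and Rps6kb1 were higher in both atrophy and repeated atrophy, and of 6 chaperones of ribosomal proteins 2 and 4 were higher. The counts of the mTORC1 list were near the share of all rows. After rescaling Rps6kb1 was its one higher gene, in repeated atrophy, and Mlst8 was lower in atrophy (-0.56, limma adjusted p = 0.0357), against 4.95% of all rows that were lower. On that scale 0 of the 6 chaperones passed in either group. In recovery 0 genes of these lists passed on CPM, against 4.40% of all rows that were higher and 3.33% that were lower. Eef2 (-0.94), Rack1 (-0.48), the initiation factor gene Eif4b (-0.59) and Tsc2 (-0.61), whose product restrains mTORC1, were lower on the rescaled values (limma adjusted p = 0.0318, 0.0291, 0.0379 and 0.0451). Of all rows, 6.02% were lower on that scale. The comparisons of atrophy, recovery and repeated atrophy with control share the 9 control limbs.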

How the data were processed

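Poly(A) RNA of 24 TA libraries was sequenced with directional libraries. Per the labels and the study's methods, the authors removed contaminant reads with Bowtie2 2.2.5, used STAR to align the rest to rn7 and worked on in Partek. How reads were counted, and on which annotation, is not given in the sources used here. The deposited values are CPM, since each library sums to 1000000 before duplicate rows are dropped. As 84.8 to 86.7% of the low values of a library were whole multiples of its step, reads were not treated as recovered and no count test was run. The table also gives a transcript length. Of 14271 rows, 28 exact duplicates were dropped, and 3 value columns that match no sample were not used.

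Rows above 0 in at least 3 libraries were fitted with limma 3.58.1 (R 4.3.3, intensity trend) on log2(CPM + 1), without a block, over the 18 libraries of the TTX rats, and over 12 libraries for sham left against control. The design had allowed for counts or size-factor normalized counts, and the test for normalized values was used. Fold changes on this scale understate those of low genes. The labels pair the limbs of each rat. The correlation of their deviations from the group means exceeded 0.1 in 7 of 12 pairs (-0.34 to 0.90), and limma's consensus was 0.108. Rescaling used factors from trimmed mean log ratios between libraries, with 30% of the ratios and 5% of the levels left out at each end. The test was tested on simulated data. The simulated libraries had no pairing of limbs and no differences between the control limbs of the stages, so they do not bear on either. Promoter starts were matched by symbol with Python 3.11.15.

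The genes named are 20 fixed by their place in the ribosome and, per comparison, the 4 largest rises and falls among genes that passed (among those tested where fewer than 4 passed), and genes opposite to the rest that passed when rescaled. Others, such as those that did not pass, were named after their values were seen. Rpl10l was not analysed here, and some genes are not reported here by name, although they stay in the counts. The genes and lists were chosen with earlier results of these data known.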

Additional observations from a re-analysis of the deposited data

Results flagged for a closer look

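Of 34 sets of 9 control limbs, 32 for named ribosomal protein genes and the others for the summed level and the subunit ratio, 3 had an end value whose gap to its neighbour took a larger share of the whole range than Dixon's critical value for 9 samples, 0.558 to 0.656 of it. Chance alone gives about 1 in 20. Rps15 was at 305.0 CPM in control limb 9, the right limb of atrophy rat 3, with the next limb at 220.6 CPM. Rps27l was at 65.2 CPM in control limb 5, the right limb of atrophy rat 2, with the next at 42.1 CPM. Rpl39l was at 1.27 CPM in control limb 6, with the next at 0.46 CPM, a gene near the limit of detection in all 24 libraries. The cause was not tested.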

How the results depend on the processing

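Each count of ribosomal protein genes that passed was recomputed under the alternatives, all planned except leaving out the 12 genes with an intronless row, which was chosen after seeing the data. Without these 12 genes, 61 of 64 passed in atrophy, 2 in recovery and 60 in repeated atrophy. No called value of a single gene changed sign. The median log2 fold change of recovery against atrophy went from -0.70 to 0.05 with the animal as a replicate block on rescaled values, that of recovery against control from 0.11 to -0.02 without recovery animal 3, and that of repeated atrophy against atrophy from 0.08 to -0.05 without atrophy animal 2. Rescaling by a trimmed mean gave 19 genes in atrophy, 4 in recovery, 43 in repeated atrophy, 10 in recovery against atrophy and 22 in repeated atrophy against recovery, and the same numbers when the factors came from other rows alone. A median of ratios gave 19, 4, 42, 8 and 19, and quantile normalization 33 in atrophy, 9 in recovery against atrophy and 23 in repeated atrophy against recovery. Of all rows, 4.63 to 5.25% were then higher in atrophy, 13.1 to 13.8% higher in repeated atrophy, 4.79 to 5.24% lower in recovery against atrophy and 10.1 to 10.6% higher in repeated atrophy against recovery, and in recovery 5.8 to 6.32% were higher. A pseudocount of 10 left 1 gene in recovery (3.04% of all rows higher). With the animal as a fixed replicate block, on CPM or rescaled, 0 genes passed in atrophy, recovery and both comparisons of treated groups other than with control, and the same held against the own 3 right limbs. Of all rows, 0 to 0.506% passed in those fits. Recovery against atrophy gave 27 genes with all 12 right limbs (12% of all rows lower) and 24 when only the groups compared were fitted (8.2%). These last designs have, by construction, fewer libraries, fewer degrees of freedom or other control limbs, and the cause was not tested for the other shifts. The pairing as a random block moved no count by more than 1.5 times, with 71, 3, 72, 28 and 49 genes. Of all rows, 20.2% were then higher in atrophy, 4.8% in recovery and 29.4% in repeated atrophy. In recovery against atrophy 11.7% were lower, and in repeated atrophy against recovery 20.1% were higher.

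Leaving out 1 rat at a time, with both its limbs, gave 0 to 72 genes for atrophy (0.00715 to 30.7% of all rows higher). The counts for recovery were 0 to 4 (0.887 to 6.7% higher), and those for repeated atrophy 56 to 73 (14.5 to 30.9%). Recovery against atrophy had 1 to 54 genes (1.82 to 22.7% of all rows lower). Repeated atrophy against recovery had 19 to 50 (8.99 to 20.9% higher). Each fit gave 0 genes for repeated atrophy against atrophy (0 to 0.143% of all rows higher, 0 to 0.157% lower). The same held for sham left (0 to 0.798% higher, 0 to 0.0581% lower). The large minus small subunit difference ranged from -0.14 to -0.05 in atrophy, -0.16 to -0.12 in recovery, -0.11 to -0.05 in repeated atrophy, -0.143 to -0.0252 in recovery against atrophy, 0.09 to 0.15 in repeated atrophy against recovery, -0.0281 to 0.0362 in repeated atrophy against atrophy and -0.0294 to 0.0494 in sham left. It moved to -0.0200 under quantile normalization in recovery against atrophy, to 0.0153 under the replicate block in repeated atrophy against recovery, and to 0.0527 (quantile) and 0.0397 (pseudocount of 10) in sham left. Of 1900 values of single genes under an alternative, 1668 kept direction and side of the threshold, 216 no longer passed and 16 newly passed. With 3 rats per treated group and sham limbs that differed as much as some treated ones, small differences between stages were not detectable.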
